A study of Mus musculus with 6 samples.

Results

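STAT transcription factors and the SOCS proteins that restrain them were examined as a family of 9 genes in macrophages exposed to a fungus. The genes were picked by symbol, and the rule used no measured value: the factors Stat2, Stat3, Stat4, Stat5a, Stat5b and Stat6, and the inhibitors Socs1, Socs3 and Cish. They make up 9 of the 54532 genes in the deposited table. RNA sequencing of polyadenylated transcripts was carried out on macrophages of C57BL/6J mice, with 3 libraries from wild type animals (WT, replicates 1, 2 and 3) and 3 from animals that lack progranulin, the secreted protein encoded by Grn (PGRN KO, replicates 4, 5 and 6). According to the labels, macrophages of the peritoneal cavity were left in six-well plates overnight and then given live Candida albicans for 6 hours, as many fungal cells as macrophages. Both genotypes were challenged without a library of resting cells to set beside them, so that every value describes the genotype in the presence of the fungus.

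The sources used here name no tissue-specific driver of the knockout. The study obtained PGRN KO mice from an outside supplier and WT mice from its own university, so that genotype and source of the animals cannot be told apart. The study matched its mice for sex and age, and gives an age for its infected mice but not for the donors of these macrophages. It is not stated whether the libraries came from separate animals, and p-values measure only the spread between these libraries. The study's text calls the sequenced cells bone marrow-derived and gives another ratio of fungus to cells; the labels were followed. Of 7 macrophage markers 5 did not pass the test described below, which 24.2% of all 8882 tested genes passed. Adgre1, among these 5, had a mean of 186 FPKM in WT libraries and 176 in PGRN KO libraries. Lyz2 and Itgam did not pass either. Lyz2 was nevertheless higher, and Itgam lower, in every PGRN KO library than in any WT library. Mertk, a receptor for dying cells, rose from 1.41 to 3.24 FPKM (limma adjusted p = 0.00640), and Csf1r, the receptor of M-CSF, fell from 32.5 to 24.7 FPKM (limma adjusted p = 0.0178). Gata6, a factor that defines resident macrophages of the peritoneum, lay between 3.78 and 5.07 FPKM over the 6 libraries, and Timd4, Selp and Cxcl13, other markers of those cells, were below the filter. Icam2, the fifth of these markers, rose from 3.10 to 5.10 FPKM and was higher in every PGRN KO library (log2 change 0.57 ± 0.10, limma adjusted p = 0.00914). Timd4 went the other way and was lower in every PGRN KO library. It was at 0.0550, 0.187 and 0.204 FPKM in WT replicates 1, 2 and 3. In PGRN KO replicates 4, 5 and 6 it was at 0.0531, 0.0243 and 0 FPKM. The part of these marker differences in the results was not tested.

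STAT proteins wait in the cytoplasm until a cytokine receptor brings Janus kinases together. The kinases phosphorylate them, and the STAT proteins then pair, enter the nucleus and bind DNA at palindromes called GAS elements or, for STAT2 with IRF9, at interferon-stimulated response elements (ISRE). SOCS proteins and CISH are induced by this signal and shut it off at the kinase or the receptor. In macrophages STAT3 carries the signal of IL-10 and IL-6, STAT6 that of IL-4 and IL-13, STAT5 that of GM-CSF, and STAT2 that of type I interferon.

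Stretches before or at the start of 4 members are shown because they carry DNA words of the kind that STAT proteins bind. Sequences were read from RefSeq on GRCm38.p6, 5′ to 3′ on the strand of the gene, and positions are counted from the annotated start, which is position 1. For Socs3 and Cish this start lies inside the gene span given further below, and for Stat2 it lies before that span begins. All 30 bases of the Cish stretch overlap annotated exons. Capitals mark matches to TTCNNNGAA or TTCNNNNGAA, the GAS palindrome with 3 or 4 spacer bases, or to GAAANNGAAA and its reverse TTTCNNTTTC, a pair of ISRE half-sites. The stretches are those of Stat2 (chr10:128270248-128270497, plus strand, positions -250 to -1), Socs1 (chr16:10785537-10785786, minus strand, positions -250 to -1), Socs3 (chr11:117969452-117969616, minus strand, positions -250 to -86) and Cish (chr9:107296654-107296683, plus strand, positions -5 to 25).
Stat2: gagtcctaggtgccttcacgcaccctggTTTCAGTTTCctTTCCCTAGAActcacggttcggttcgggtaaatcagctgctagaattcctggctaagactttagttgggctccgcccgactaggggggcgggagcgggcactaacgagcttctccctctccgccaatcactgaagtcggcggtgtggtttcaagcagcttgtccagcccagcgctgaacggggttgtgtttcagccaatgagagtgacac
Socs1: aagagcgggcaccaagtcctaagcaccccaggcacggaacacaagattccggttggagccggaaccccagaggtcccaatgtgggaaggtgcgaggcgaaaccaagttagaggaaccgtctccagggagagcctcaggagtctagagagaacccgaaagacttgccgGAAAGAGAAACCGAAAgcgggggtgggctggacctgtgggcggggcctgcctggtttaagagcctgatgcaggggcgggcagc
Socs3: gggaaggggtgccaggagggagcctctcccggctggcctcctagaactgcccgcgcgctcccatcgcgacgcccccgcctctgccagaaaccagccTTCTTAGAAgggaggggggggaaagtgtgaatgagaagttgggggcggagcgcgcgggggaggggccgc
Cish: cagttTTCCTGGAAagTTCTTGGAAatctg

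Stat2 held TTTCAGTTTC at positions -222 to -213 and TTCCCTAGAA at positions -210 to -201. Socs1 held GAAAGAGAAA and GAAACCGAAA, which overlap, at positions -83 to -74 and -77 to -68. Socs3 held a single GAS palindrome, TTCTTAGAA, at positions -154 to -146. Cish held TTCCTGGAA and TTCTTGGAA at positions 1 to 9 and 12 to 20. The annotation gives Stat4 a second start, at which GAAAGTGAAA was found at positions -97 to -88. The 300-base windows of Stat3, Stat5a, Stat5b and Stat6, from 250 bases before to 50 bases after each start, held no such word. In all, 5 of the 12 windows of the 9 members (41.7%) held at least 1 of the 3 words, and 17.3% of the 32851 windows of all genes did. Singly, TTCNNNGAA was found in 8.3% of all windows, TTCNNNNGAA in 6.95% and the ISRE half-site pair in 3.44%, on either strand. A match describes the letters only, and no binding was measured.

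Levels are given as FPKM, a fragment count divided by gene length and a library size, as deposited. That library size was not the total of counted fragments. It was 0.974, 0.925 and 1.028 times that total in WT replicates 1, 2 and 3. In PGRN KO replicates 4, 5 and 6 it was 1.048, 1.088 and 0.9995 times. Libraries held 15996786 to 17551619 counted fragments, averaging 16907608 ± 811029 (SD, n = 3) for WT and 17071110 ± 478695 (SD, n = 3) for PGRN KO. Grn stood at 323 to 337 FPKM in WT and at no more than 0.0167 FPKM in PGRN KO, as the labels state. Genes with a mean of at least 1 FPKM over the 6 libraries were tested with limma on log2(FPKM + 1), a scale that understates the change of low genes, and a gene passed at a Benjamini-Hochberg adjusted p under 0.05. A log2 change is PGRN KO minus WT on that scale, with its SE. Beside it stands a two-sided exact permutation test on the 6 libraries, which cannot go below 0.1 with 3 libraries against 3. PGRN KO replicate 6 stood apart from the other PGRN KO libraries on the second principal component, which held 22.5% of the variance. In bulk RNA fewer cells of a type and less RNA per cell cannot be told apart.

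The families were expressed over a wide range. In WT, Socs3 was the most abundant member at 899 ± 101 FPKM (SD, n = 3), above 99.43% of the tested genes, and Stat3 followed at 105 ± 3.56 FPKM. Stat6 (44.7 FPKM) and Stat2 (44.0 FPKM) came next and their ranges overlapped. Cish (23.8 FPKM) and Stat5a (22.8 FPKM) also overlapped, and Socs1 (18.5 FPKM) and Stat5b (13.3 FPKM) lay below them. Stat4, a factor best known from T cells and NK cells, was last at 1.13 FPKM. In PGRN KO the order was Socs3, Stat3, Stat2, Stat6, Cish, Socs1, Stat5a, Stat5b and Stat4, so that Stat2 moved clear of Stat6 and Socs1 stood before Stat5a. Neighbours overlapped in PGRN KO between Cish and Socs1 and between Socs1 and Stat5a.

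**Figure D1:**
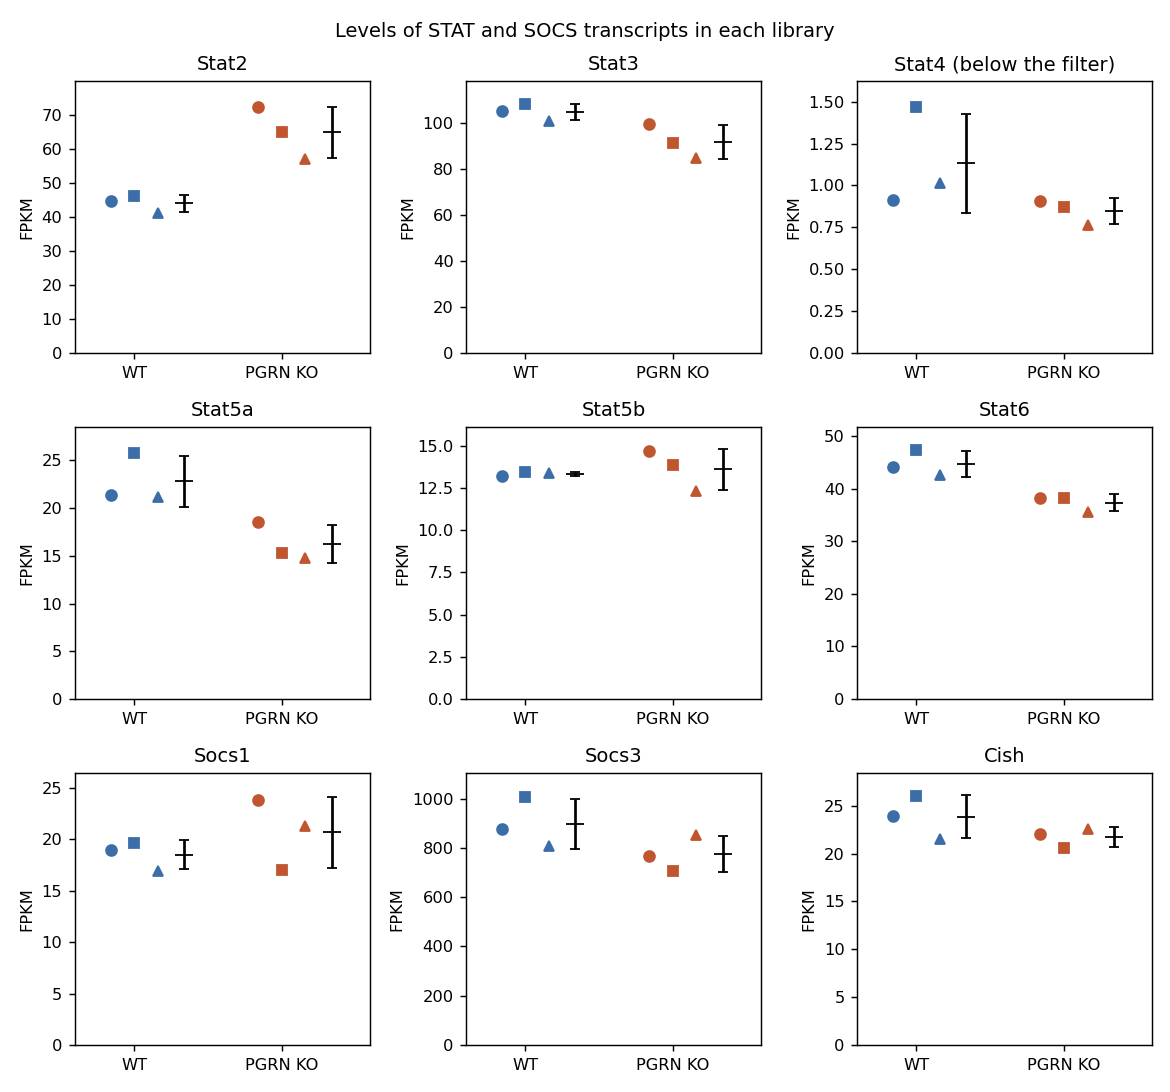
Each panel plots 1 member in FPKM on an axis that starts at 0, with 3 WT and 3 PGRN KO libraries as points (circle, square and triangle in order of replicate number) and the mean with its SD beside them. In deposited FPKM, Stat2 lies higher in every PGRN KO library than in any WT library. Stat3, Stat5a and Stat6 lie lower in every PGRN KO library.

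Of the 8 members tested, Stat2 rose, Stat5a fell and 6 did not pass. Over all 8882 tested genes, 24.2% passed, 10.4% as higher and 13.8% as lower in PGRN KO, so that the 25% of members that passed was close to the share over all genes. Genes higher in PGRN KO made up 42.8% of those that passed on the deposited scale, 60.3% on a TPM scale, 62.9% with the sum of fragments as library size and 62.2% with voom on fragments, and under each of these 3 Stat2 passed and Stat5a did not. The median log2 change was -0.16 over the 8 members and -0.03 over all tested genes. It was -0.19 over the 5 STAT genes tested and -0.13 over the 3 inhibitors, and the 2 that passed were both STAT genes.

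Stat2, the partner of IRF9 in the interferon-stimulated gene factor, was the member that rose. Stat2 (ENSMUSG00000040033, chr10:128270559-128292849, plus strand) stood at 44.5, 46.2 and 41.1 FPKM in the WT libraries (here and throughout in the order 1, 2, 3) and at 72.3, 64.9 and 57.1 FPKM in the PGRN KO libraries (in the order 4, 5, 6). The groups did not overlap, and the PGRN KO libraries were the more spread. The mean went from 44.0 ± 2.57 to 64.8 ± 7.61 FPKM (SD, n = 3 each), 1.47 times the WT level. The log2 change was 0.54 ± 0.11 (95% interval 0.28 to 0.81, limma adjusted p = 0.0157), and the exact permutation p was 0.1. The values rest on 4048 to 4417 fragments in WT and 5848 to 7423 in PGRN KO. The call was lost when 1 WT library was left out, with a limma adjusted p of 0.0725, 0.0553 and 0.0697 without WT replicates 1, 2 and 3, while the log2 change was then 0.55, 0.58 and 0.50.

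Stat5a, which with Stat5b carries the signals of GM-CSF, IL-3 and many other cytokines, was the member that fell. Stat5a (ENSMUSG00000004043, chr11:100859351-100885169, plus strand) was measured at 21.4, 25.8 and 21.2 FPKM in WT and at 18.5, 15.4 and 14.8 FPKM in PGRN KO. WT replicate 2 was the highest library, and no PGRN KO library reached the WT range. The mean went from 22.8 ± 2.62 to 16.2 ± 2.01 FPKM (SD, n = 3 each), with a log2 change of -0.47 ± 0.12 (95% interval -0.76 to -0.18, limma adjusted p = 0.0353) and an exact permutation p of 0.1. The call passed under 7 of 16 other settings. It was lost without any 1 of the WT libraries (limma adjusted p = 0.0968, 0.127 and 0.0794 without WT replicates 1, 2 and 3), without PGRN KO replicate 5 (limma adjusted p = 0.0878), and under 5 settings of the scale or filter (limma adjusted p = 0.0507 to 0.0932), and its sign was negative under all 16.

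Stat5b, the close relative of Stat5a on the other side of it on chromosome 11, did not pass. Stat5b (ENSMUSG00000020919, chr11:100780731-100850724, minus strand) was measured at 13.2, 13.4 and 13.4 FPKM in WT and at 14.7, 13.8 and 12.3 FPKM in PGRN KO. The groups overlapped and the WT libraries were close together. The log2 change was 0.02 ± 0.09 (95% interval -0.19 to 0.24, limma adjusted p = 0.875), and it was -0.03 without PGRN KO replicate 4. The ratio of Stat5a to Stat5b in the same library, compared after the values were seen, was 1.62, 1.92 and 1.58 in WT and 1.26, 1.11 and 1.203 in PGRN KO. The groups did not overlap, and the difference in the log2 ratio was -0.52 (exact permutation p = 0.1). Of the 31-base words of the Stat5a gene model, 11.5% also occur in Stat5b, and 15.1% of those of Stat5b occur in Stat5a, so reads from these stretches could be counted for either gene.

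Stat3, which carries the anti-inflammatory signal of IL-10, was the most abundant factor and did not pass. Stat3 (ENSMUSG00000004040, chr11:100885098-100939540, minus strand) was measured at 105.1, 108.2 and 101.1 FPKM in WT and at 99.6, 91.3 and 84.7 FPKM in PGRN KO. On the deposited scale every PGRN KO library was below every WT library, by a small margin between PGRN KO replicate 4 and WT replicate 3. With the sum of fragments as library size the log2 change of Stat3 was -0.09 (limma adjusted p = 0.538). On the deposited scale it was larger. The log2 change was -0.19 ± 0.09 (95% interval -0.42 to 0.03, limma adjusted p = 0.180; exact permutation p = 0.1). The interval leaves out a fall larger than 0.42 on the log2 scale.

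Stat6, the factor of IL-4 and IL-13, also did not pass. Stat6 (ENSMUSG00000002147, chr10:127642986-127660957, plus strand) was measured at 44.0, 47.3 and 42.7 FPKM in WT and at 38.3, 38.3 and 35.5 FPKM in PGRN KO, and the groups did not overlap. The log2 change was -0.25 ± 0.09 (95% interval -0.46 to -0.05), with a limma adjusted p of 0.0750. It was 0.0300 without PGRN KO replicate 6 and 0.0138 with sample quality weights, under which that library had a weight of 0.0899. Of all tested genes, 21.2% had groups that did not overlap with PGRN KO higher and 27.6% with PGRN KO lower, and of the 8 members 1 (Stat2) and 3 (Stat3, Stat5a and Stat6) did. Overlap was read on the deposited scale only.

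Stat4 was at the edge of the filter and was not tested. Stat4 (ENSMUSG00000062939, chr1:51987148-52107189, plus strand) was measured at 0.911, 1.47 and 1.02 FPKM in WT and at 0.910, 0.873 and 0.762 FPKM in PGRN KO. These values correspond to 59, 84 and 71 fragments in WT and 61, 64 and 51 in PGRN KO, and WT replicate 1 and PGRN KO replicate 4 were almost equal. With no filter the log2 change was -0.20 ± 0.13 (95% interval -0.52 to 0.12, limma adjusted p = 0.479). In the annotation 26.7% of its exonic bases are shared with Gm28177 on the same strand.

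**Figure D2:**
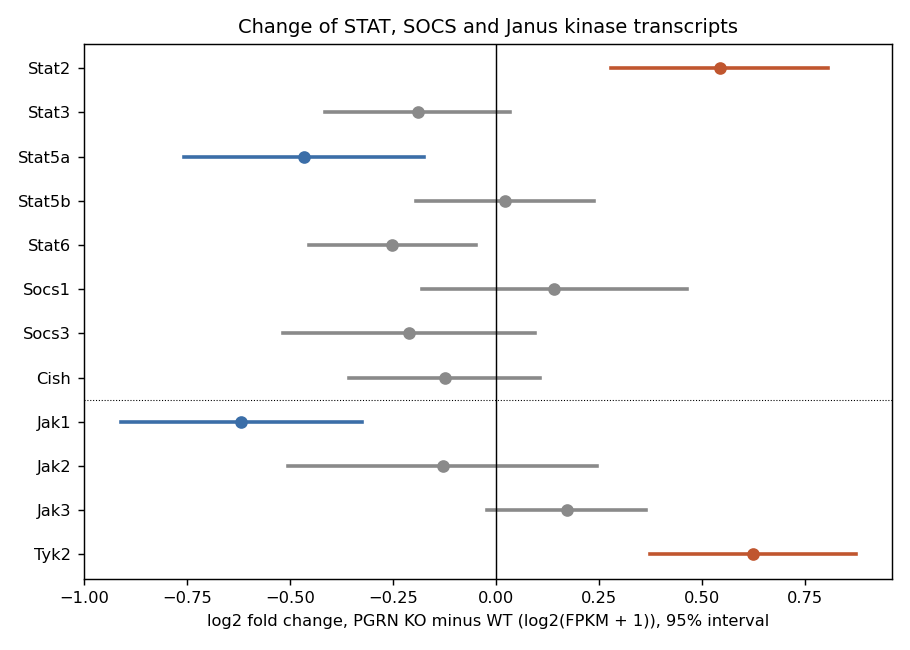
Points give the log2 change (PGRN KO minus WT, log2(FPKM + 1)) of the 8 tested members and the 4 Janus kinases, and lines the 95% interval, with genes that passed as higher in orange, as lower in blue and the others in grey. Stat2 and Tyk2 lie to the right, Stat5a and Jak1 to the left, and the intervals of the inhibitors all cross 0.

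None of the 3 inhibitors passed. Socs3, which blocks receptors of the IL-6 family, was measured at 879, 1009 and 809 FPKM in WT and at 768, 705 and 854 FPKM in PGRN KO (ENSMUSG00000053113, chr11:117966079-117970047, minus strand). PGRN KO replicate 6 lay within the WT range, and replicates 4 and 5 lay below it. The mean went from 899 ± 101 to 776 ± 74.99 FPKM (SD, n = 3 each), and the log2 change was -0.21 ± 0.13 (95% interval -0.52 to 0.10, limma adjusted p = 0.269), or -0.13 without WT replicate 2. With sample quality weights it was -0.26, and that value passed (limma adjusted p = 0.0384). Each library held 38460 to 43146 fragments of Socs3, so that counting error was small beside the spread between libraries.

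Socs1, which inhibits the Janus kinases themselves and is induced by interferons, was measured at 19.0, 19.7 and 16.9 FPKM in WT and at 23.9, 17.0 and 21.3 FPKM in PGRN KO (ENSMUSG00000038037, chr16:10782240-10785536, minus strand). PGRN KO replicate 5 lay within the WT range. The log2 change was 0.14 ± 0.14 (95% interval -0.18 to 0.46, limma adjusted p = 0.475), and it was 0.08 without WT replicate 3, 0.04 without PGRN KO replicate 4 and 0.27 with PGRN KO replicate 5 left out. Cish, a target of STAT5 that acts on its receptors, was measured at 24.0, 26.0 and 21.5 FPKM in WT and at 22.05, 20.6 and 22.6 FPKM in PGRN KO (ENSMUSG00000032578, chr9:107296026-107302784, plus strand). The groups overlapped, and the log2 change was -0.13 ± 0.10 (95% interval -0.36 to 0.11, limma adjusted p = 0.380), or -0.06 and -0.19 without WT replicates 2 and 3. The gene model of Cish covers 95% of its span and overlaps 2 predicted genes on the other strand, Gm17040 and Gm17041, by 4.07% and 7.46% of its exonic bases. The sources used here do not say whether strand was used in counting.

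Inhibitors were also set against the factor they restrain or answer to, within each library, where scaling between libraries has no part. Socs3 stood at 8.36, 9.33 and 8.01 times the FPKM of Stat3 in WT and at 7.71, 7.72 and 10.1 times in PGRN KO. PGRN KO replicate 6 had the highest ratio of all, and the groups overlapped (difference in log2 ratio -0.02, exact permutation p = 0.8, adjusted over the 3 ratios 0.8). Without that library the difference was -0.15. Socs1 stood at 0.426, 0.426 and 0.411 times the FPKM of Stat2 in WT and at 0.330, 0.262 and 0.373 times in PGRN KO. This ratio was lower in every PGRN KO library (difference in log2 ratio -0.41, exact permutation p = 0.1, adjusted 0.3), and the difference was -0.26 without PGRN KO replicate 5. Cish over the sum of Stat5a and Stat5b was 0.693, 0.663 and 0.624 in WT and 0.6645, 0.705 and 0.834 in PGRN KO. The groups overlapped (difference in log2 ratio 0.15, exact permutation p = 0.2, adjusted 0.3), and the difference was 0.05 without PGRN KO replicate 6.

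**Figure D3:**
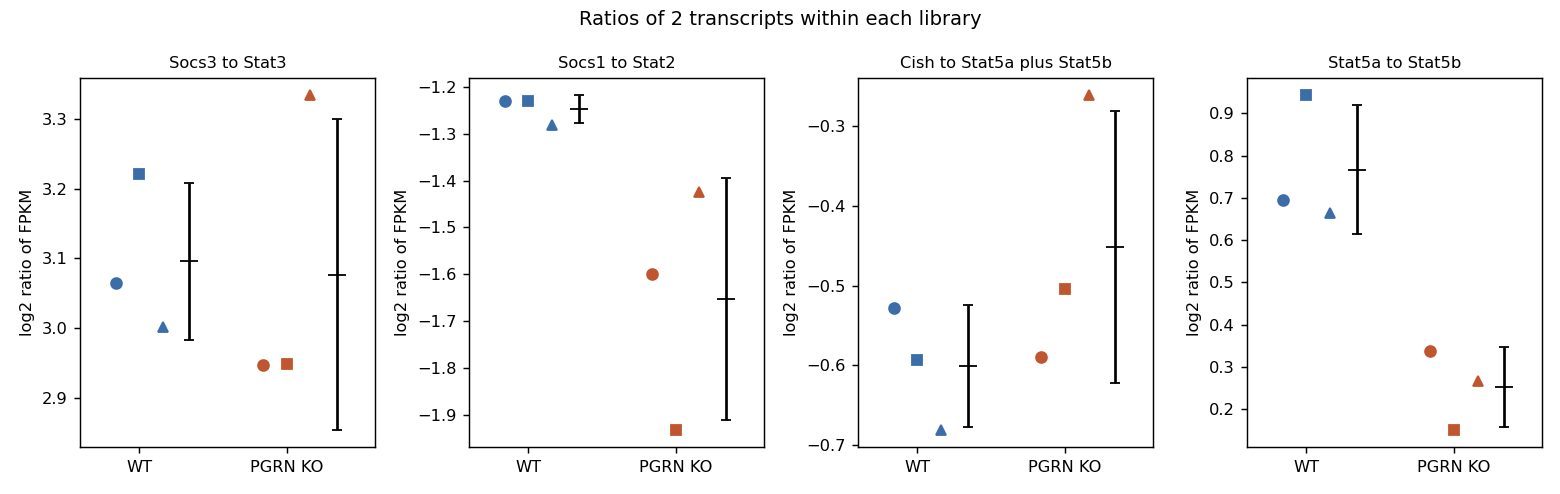
Panels plot the log2 ratio of the FPKM of an inhibitor and its factor, and of Stat5a and Stat5b, in each library (points; circle, square and triangle in order of replicate number), with the group mean and SD beside them; the axes do not start at 0. The groups are apart for Socs1 to Stat2 and for Stat5a to Stat5b and overlap for the other two.

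The Janus kinases that phosphorylate STAT proteins did not move as a block. Jak1, which serves most receptors of this pathway, was at 63.4, 65.6 and 59.9 FPKM in WT and at 44.7, 44.1 and 34.03 FPKM in PGRN KO. It fell with a log2 change of -0.62 ± 0.12 (limma adjusted p = 0.0146), and every PGRN KO library was below the WT range. The call was lost on the TPM scale (limma adjusted p = 0.0621) and without WT replicate 1, 2 or 3 (limma adjusted p = 0.0697, 0.0685 and 0.0514). Tyk2 is the kinase that works beside JAK1 at the type I interferon receptor. It was at 2.59, 2.42 and 2.49 FPKM in WT and at 4.74, 4.75 and 3.75 FPKM in PGRN KO. It rose with a log2 change of 0.62 ± 0.11 (limma adjusted p = 0.00866) and passed in all 15 other settings that tested it. Jak2, which serves the GM-CSF receptor, went from 71.6 ± 8.64 to 65.8 ± 11.9 FPKM (SD, n = 3 each), with a log2 change of -0.13 (limma adjusted p = 0.576). Jak3, which binds the common gamma chain, went from 3.41 ± 0.0727 to 3.97 ± 0.167 FPKM, with a log2 change of 0.17 (limma adjusted p = 0.164).

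The other genes of the pathway were grouped in 8 lists, the Janus kinases among them, with 108 distinct genes in all. Osm, Socs2 and Il4ra repeat across lists, so the counts by list add up to more. Of the 108 genes 96 were tested, 18 rose and 21 fell, and 18 of the 39 that passed did so in every other setting that tested them. Over all 8882 tested genes 24.2% passed, 10.4% as higher and 13.8% as lower. The counts of each list below stand beside these shares. The lists were drawn up with earlier results of these data known, and their counts are a description.

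Among ligands that signal through STAT proteins, 2 of the 14 tested rose, 4 fell and 8 did not pass. Il15, a cytokine of NK cells and memory T cells, was at 2.09, 2.93 and 1.45 FPKM in WT and at 9.78, 6.96 and 10.2 FPKM in PGRN KO (log2 change 1.67 ± 0.21, limma adjusted p = 0.00325). Il10, the main ligand of STAT3 in macrophages, was at 229, 289 and 176 FPKM in WT and at 75.1, 68.0 and 88.6 FPKM in PGRN KO, 0.334 times the WT mean (log2 change -1.55 ± 0.19, limma adjusted p = 0.00340). Il15 was thus far higher and Il10 far lower in every PGRN KO library. Lif, of the IL-6 family, was at 357, 449 and 275 FPKM in WT and at 185, 148 and 135 FPKM in PGRN KO (log2 change -1.19 ± 0.20, limma adjusted p = 0.00868). Il27, a subunit of IL-27, was at 27.0, 35.4 and 24.2 FPKM in WT and at 86.1, 49.9 and 101 FPKM in PGRN KO (log2 change 1.38 ± 0.27, limma adjusted p = 0.0134). Ebi3, which encodes the other subunit and is named here after its values were seen, went the other way, from 22.5 ± 1.196 to 15.2 ± 1.497 FPKM (SD, n = 3 each; limma adjusted p = 0.0110). The call for Il27 was lost without WT replicate 1 or 3 (limma adjusted p = 0.0595 and 0.0567) and that for Ebi3 without WT replicate 1 or 2 (limma adjusted p = 0.0641 and 0.0573).

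Of the 19 receptor chains tested, 3 rose, 4 fell and 12 did not pass. Il15ra, which presents IL-15 to other cells, was at 3.48, 3.32 and 2.80 FPKM in WT. In PGRN KO it was at 16.2, 12.05 and 11.97 FPKM, 4.19 times the WT mean (log2 change 1.77 ± 0.14, limma adjusted p = 0.00119). Il21r, a receptor that signals through STAT3, went from 8.78 ± 1.09 to 16.8 ± 1.96 FPKM (SD, n = 3 each; log2 change 0.86 ± 0.12, limma adjusted p = 0.00511). The 2 beta chains of the receptors for GM-CSF and IL-3, whose signal passes through STAT5, both fell. Csf2rb went from 300.0 ± 15.5 to 198 ± 18.2 FPKM (log2 change -0.60 ± 0.11, limma adjusted p = 0.00987). Csf2rb2 went from 196 ± 4.52 to 123 ± 20.0 FPKM (log2 change -0.69 ± 0.13, limma adjusted p = 0.0137). These 2 genes share sequence, with 18.8% of the words of Csf2rb found in Csf2rb2 and 28.6% the other way, so their counts are not independent. Without WT replicate 1 neither passed (limma adjusted p = 0.0629 for Csf2rb and 0.0685 for Csf2rb2), nor on the TPM scale (0.0514 and 0.0572), and Csf2rb2 did not without WT replicate 2 or 3 either (0.0557 and 0.0564).

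Among the other inhibitors of the pathway, 2 of the 15 tested rose, 2 fell and 11 did not pass. The remaining SOCS genes, Socs2, Socs4, Socs5, Socs6 and Socs7, were among the 11. Usp18, which holds back the type I interferon receptor, was at 72.0, 85.9 and 64.2 FPKM in WT and at 138, 110 and 166 FPKM in PGRN KO (log2 change 0.88 ± 0.18, limma adjusted p = 0.0144). Among the phosphatases, Ptpn6, which encodes SHP-1, rose from 20.3 to 29.5 FPKM (log2 change 0.50 ± 0.14, limma adjusted p = 0.0428), while Ptpn2 fell from 30.6 to 22.7 FPKM (log2 change -0.42 ± 0.09, limma adjusted p = 0.0187). Sh2b3, an adaptor that restrains cytokine receptors, fell from 9.35 to 6.12 FPKM (log2 change -0.55 ± 0.11, limma adjusted p = 0.0139). The calls for Ptpn6, Ptpn2, Sh2b3 and Usp18 were each lost without WT replicate 1 (limma adjusted p = 0.133, 0.0927, 0.0632 and 0.0643). That for Usp18 was also lost without WT replicate 3, that for Sh2b3 without WT replicate 2 or 3, that for Ptpn2 without WT replicate 2 or PGRN KO replicate 5, and that for Ptpn6 without WT replicate 2 or 3 or PGRN KO replicate 4 (limma adjusted p = 0.055 to 0.14 over these). The TPM scale ended the calls for Sh2b3 and Ptpn2 (limma adjusted p = 0.0826 and 0.0521), the sum of fragments as library size that for Sh2b3 (0.0503) and no filter that for Ptpn6 (0.104).

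**Figure D4:**
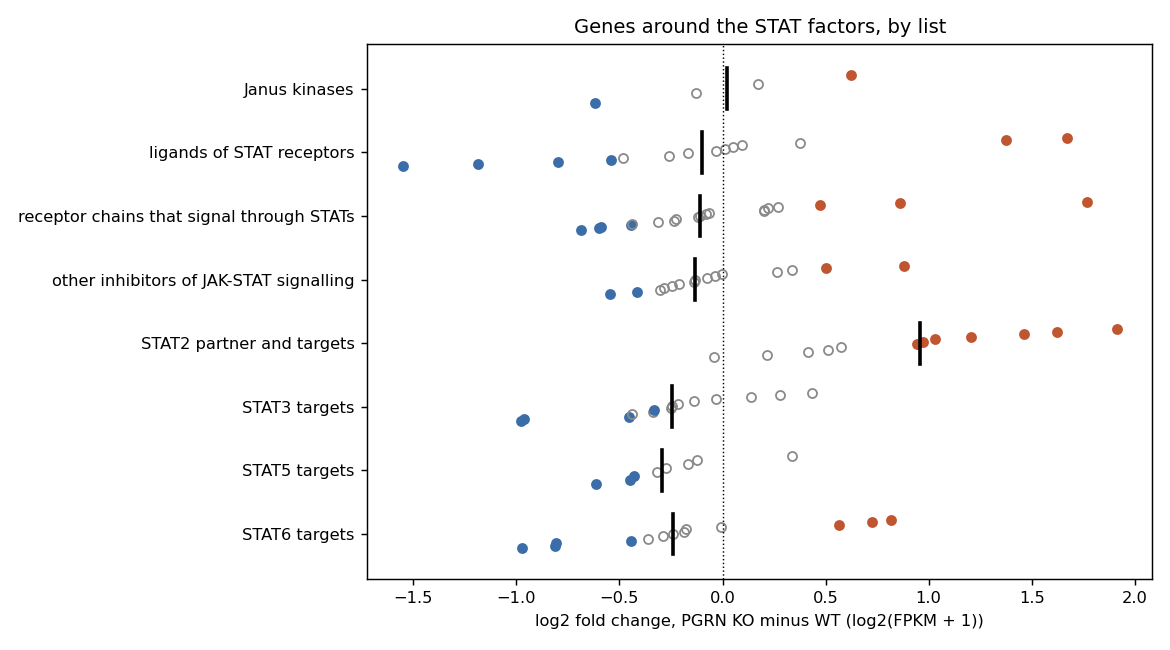
Points give the log2 change (PGRN KO minus WT, log2(FPKM + 1)) of each tested gene of the 8 lists, filled in orange or blue where it passed as higher or lower and open where it did not, and black bars mark the list medians. The list of the STAT2 partner and targets has its median at 0.96, and those of the STAT3, STAT5 and STAT6 targets lie at -0.25, -0.30 and -0.24.

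Of 12 genes in the list of its partner and targets, 7 rose, none fell and 5 did not pass, with a median log2 change of 0.96. Mx1, an antiviral GTPase, was at 17.7, 19.7 and 15.0 FPKM in WT and at 80.5, 58.4 and 67.3 FPKM in PGRN KO, 3.93 times the WT mean (log2 change 1.91 ± 0.15, limma adjusted p = 0.00119). Ifit2 went from 127 ± 23.6 to 351 ± 67.9 FPKM, Mx2 from 21.0 ± 3.01 to 49.9 ± 7.68 FPKM, and Ifit3, which shares 61.8% of its words with Ifit3b, from 76.1 ± 11.9 to 241 ± 69.2 FPKM (SD, n = 3 each). All 4 passed in all 16 other settings. Irf9, the DNA-binding partner of STAT2, was at 21.0, 21.4 and 19.4 FPKM in WT and at 20.3, 19.2 and 20.5 FPKM in PGRN KO. The groups overlapped (log2 change -0.04 ± 0.08, 95% interval -0.24 to 0.16, limma adjusted p = 0.745). Stat2 rose where Irf9 did not pass, a pair named after the values were seen.

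Of the 14 STAT3 targets tested, 4 fell, none rose and 10 did not pass, with a median of -0.25. Cebpd, a transcription factor of acute inflammation, was at 4.48, 4.80 and 4.93 FPKM in WT and at 1.85, 1.79 and 2.12 FPKM in PGRN KO (log2 change -0.98 ± 0.09, limma adjusted p = 0.00142). Pim3, a survival kinase, was at 97.4, 113 and 87.9 FPKM in WT and at 50.01, 48.1 and 52.6 FPKM in PGRN KO (log2 change -0.96 ± 0.11, limma adjusted p = 0.00277). Both passed in every other setting that tested them. Il1rn, the natural antagonist of the IL-1 receptor, and Sbno2, a corepressor, fell by 0.45 and 0.33 on the log2 scale (limma adjusted p = 0.0259 and 0.0321) and passed in 10 and 7 of 16 other settings. Neither passed without WT replicate 1, 2 or 3 or without PGRN KO replicate 5, nor did Il1rn without PGRN KO replicate 4 (limma adjusted p = 0.0578 to 0.140 over these).

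Of the 8 STAT5 targets tested, 3 fell, none rose and 5 did not pass. Id2, an inhibitor of helix-loop-helix factors, was at 412, 419 and 366 FPKM in WT and at 262, 262 and 256 FPKM in PGRN KO (log2 change -0.61 ± 0.10, limma adjusted p = 0.00674), and its call was lost without WT replicate 1 (limma adjusted p = 0.0528). Bcl6, a repressor, and Pim2, a kinase, fell by 0.45 and 0.43 on the log2 scale (limma adjusted p = 0.0482 and 0.0281) and passed in 5 and 8 of 15 other settings. Neither passed without WT replicate 1, 2 or 3 or without PGRN KO replicate 5, nor did Pim2 without PGRN KO replicate 4 or Bcl6 without PGRN KO replicate 6 (limma adjusted p = 0.0559 to 0.162 over these).

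Targets of STAT6 split. Of the 13 tested, 3 rose, 4 fell and 6 did not pass. Arg1, the arginase of alternatively activated macrophages, was at 205, 175 and 233 FPKM in WT and at 89.6, 106 and 114 FPKM in PGRN KO (log2 change -0.97 ± 0.14, limma adjusted p = 0.00559). Egr2, a transcription factor, and Ccl22, a chemokine, fell alongside it, with log2 changes of -0.81 ± 0.10 and -0.81 ± 0.12 (limma adjusted p = 0.00324 and 0.00633). Chil3, a secreted lectin of the same programme, rose from 1328 ± 58.8 to 2343 ± 201 FPKM (SD, n = 3 each; log2 change 0.82 ± 0.12, limma adjusted p = 0.00505), and 41.5% of its words occur in other genes, mostly Chil4. Named after their values were seen, Mgl2 and Ccl24 were the others that rose and Il4ra, the receptor itself, the other that fell. The call for Mgl2 was lost without WT replicate 1 (limma adjusted p = 0.0528), and that for Ccl24 without WT replicate 1, 2 or 3 (0.141, 0.0802 and 0.104), without PGRN KO replicate 5 (0.0725) and with no filter (0.110).

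Markers of some other cell types differed between the genotypes. All 5 B cell markers were higher in every PGRN KO library than in any WT library. Their summed level was 1.501 to 2.495 FPKM in WT against 6.62 to 8.92 FPKM in PGRN KO. Of the 5 mast cell markers 4 were, at 1.47 to 2.25 FPKM and 6.39 to 8.84 FPKM. The 8 T cell and NK cell markers summed to 40.5 to 42.7 FPKM in WT against 35.5 to 38.4 FPKM in PGRN KO, most of it from Il7r, and 3 of them were higher and 1 was lower in every PGRN KO library. The 5 neutrophil markers summed to 48.3 to 53.0 FPKM in WT against 21.2 to 26.0 FPKM in PGRN KO, nearly all of it S100a8, and Ly6g and Elane were at 0 in all libraries. The 4 dendritic cell markers summed to 1.77 to 2.23 FPKM in WT against 1.083 to 1.36 FPKM in PGRN KO, with Flt3 and Xcr1 lower in every PGRN KO library and Cd209a at 0 in all libraries. The 5 markers of mesothelial cells and fibroblasts summed to 0.242 to 0.493 FPKM in WT against 0.628 to 1.27 FPKM in PGRN KO, with Col1a1 and Col3a1 higher in every PGRN KO library. The 3 eosinophil markers summed to 0.0214 to 0.199 FPKM in WT against 0 to 0.0415 FPKM in PGRN KO, and Epx and Prg2 were at 0 in all libraries. The part of these cells in the changes of Stat2, Stat5a and the pathway genes was not tested.

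Several members lie on the chromosome of the targeted gene. Grn is at chr11:102430315-102437048 on GRCm38. The neighbours Stat5b, Stat5a and Stat3 lie 1.58, 1.545 and 1.491 Mb before it, and Socs3 lies 15.53 Mb beyond it. Of the 54 genes tested within 2 Mb of Grn, 9 rose and 4 fell (24.1%), and of the 117 within 5 Mb 17 rose and 16 fell (28.2%). On chromosome 11 as a whole 25% of 764 tested genes passed, beside 24.2% over all genes. Stat3 and Stat5a overlap tail to tail by 72 exonic bases on opposite strands, which is 0.756% of the Stat3 model and 1.01% of that of Stat5a.

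The levels of members were compared with each other and with all tested genes as a description over the 6 libraries, which share their scaling and fall into the 2 genotypes. Stat3, Stat5a and Stat6 went together (Pearson r of 0.949, 0.92 and 0.957 for the 3 pairs), as did Cish and Socs3 (0.959), while Stat5b correlated with Stat5a at 0.176. Closest to Stat2 were Slfn9, Ddx60 and Crybg1 (r of 0.9988, 0.9988 and 0.9986), and 189 genes exceeded 0.95. Plpp3, Mbd6 and Slco3a1 were closest to Stat3 (0.9969, 0.996 and 0.9942). For Socs3 they were Osm, Tnip1 and C1qbp (0.9918, 0.9893 and 0.9846). Osm was at 510, 590 and 488 FPKM in WT and at 462, 440 and 512 FPKM in PGRN KO. For Cish they were Il6, Tnf and Ccrl2 (0.9937, 0.993 and 0.9895). Il6 was at 362, 455 and 255 FPKM in WT and at 270, 206 and 276 FPKM in PGRN KO. Cish and Il6 alike were highest in WT replicate 2 and lowest in PGRN KO replicate 5. The deposited library size was smallest relative to counted fragments in WT replicate 2 (0.925 times) and largest in PGRN KO replicate 5 (1.088 times). The part of this scaling in the likeness was not tested.

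**Figure D5:**
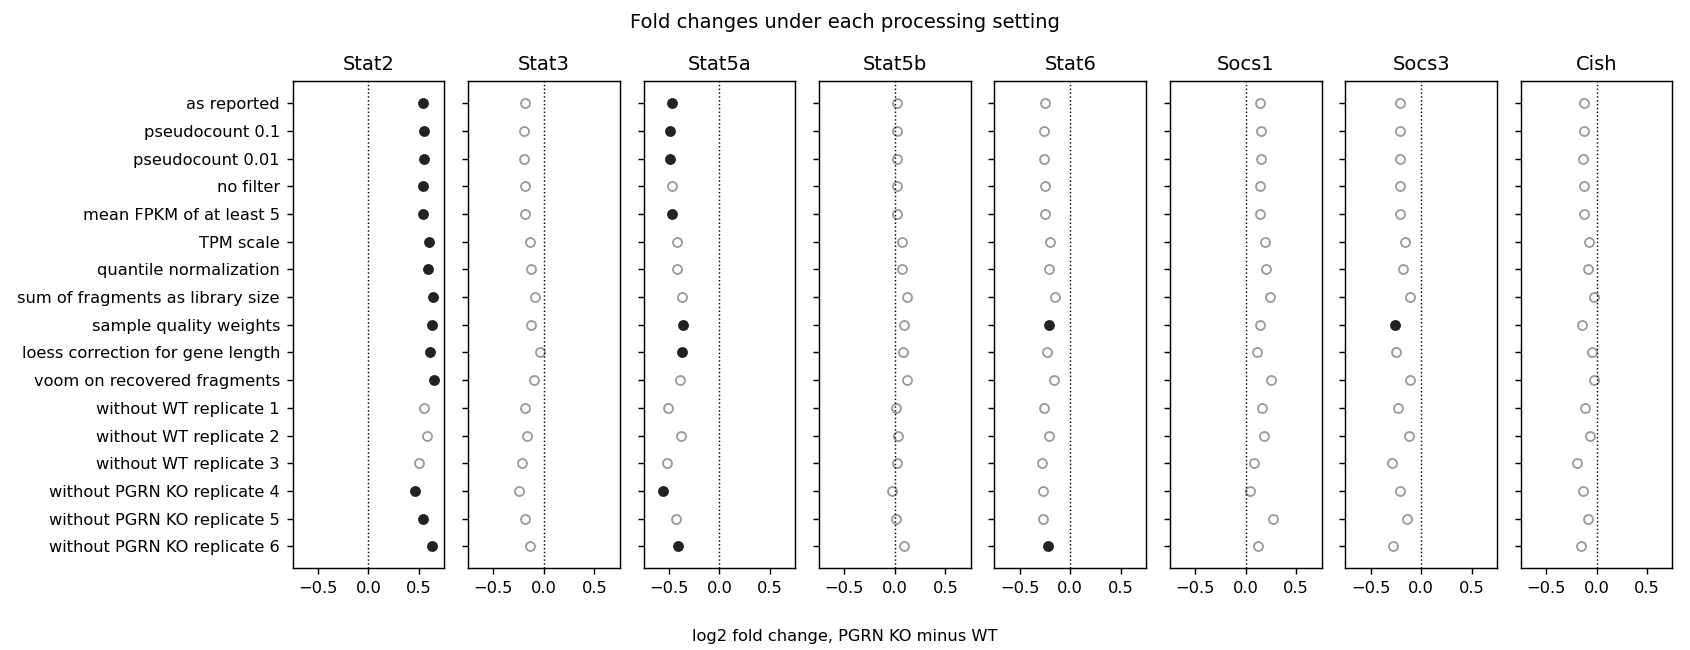
Each panel plots the log2 change (PGRN KO minus WT) of 1 tested member under the reported setting and 16 others, filled where the limma adjusted p was under 0.05 and open where it was not. Stat2 lies between 0.46 and 0.65 and is open in the rows that leave out a WT library, Stat5a is filled in 7 of the 16 others, and Stat5b lies between -0.03 and 0.12.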

How the data were processed

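The deposited FPKM values, 1 per gene and library, were made by the authors from poly-A selected, paired-end libraries. The submitters' processing notes name HISAT2 2.0.5, featureCounts 1.5.0-p3 and mm10, while the study's text names HTSeq; the sources used here give no strandedness or annotation release. FPKM times the gene length in the table gave whole fragments in all libraries (tolerance 0.001), from which depth was read; counting intervals were not used. Genes with a mean of at least 1 FPKM (8882 of 54532) were compared as log2(FPKM + 1) with limma 3.58.1 in R 4.3.3. The fit used a variance trend, two-sided tests, no covariates and a Benjamini-Hochberg threshold of 0.05. It was also run on simulated counts with the same dispersion for every gene and no outlying library. That run does not bear on the calls reported here. Ratios were tested by exact permutation of the libraries. Coordinates follow GRCm38 (99.77% of identifiers matched).

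Members and lists were chosen with earlier results of these data known. Named were all members and Janus kinases, up to 4 genes per list with the largest changes among those that passed, the 3 genes most like Stat2, Stat3, Socs3 and Cish (predicted genes left out), and Grn. Alternatives were pseudocounts of 0.1 and 0.01, no filter, a mean of at least 5 FPKM, TPM, quantile or fragment-sum scaling, sample quality weights, a length correction, voom, and leaving out each library.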

Additional observations from a re-analysis of the deposited data

How the results depend on the processing

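The count of genes that passed was 2151 as reported, 1366 with no filter and 4225 with sample quality weights, and 713 to 3668 when 1 library was left out, lowest without WT replicate 1 and highest without PGRN KO replicate 6. Of the members 2 passed, 1 higher and 1 lower. With no filter, the TPM scale, quantile normalization, the sum of fragments or voom 1 passed and 0 were lower, and with sample quality weights 4 passed, 3 of them lower. When 1 library was left out 0 to 3 passed, 0 to 1 higher and 0 to 2 lower. Genes of the pathway lists that passed numbered 39, 64 with sample quality weights and 18 to 54 when 1 library was left out. Within 2 Mb of Grn 13 passed (4 to 22 when 1 library was left out), and within 5 Mb 33 passed (12 to 51). The difference in the log2 ratio of Socs3 to Stat3 was -0.02, -0.21 after correction for gene length and -0.15 to 0.05 when 1 library was left out. The log2 fold change of Stat5b, 0.02, lay between -0.02975 and 0.08817 when 1 library was left out, and was below 0 without PGRN KO replicate 4. The list median of the Janus kinases changed sign with a mean of at least 5 FPKM (-0.37), without WT replicate 3 (-0.02) or PGRN KO replicate 4 (-0.03), and that of the ligands without WT replicate 2 (0.01). With the sum of fragments as library size the log2 fold changes of Stat3, Stat6, Socs3 and Cish shrank to -0.09, -0.15, -0.11 and -0.03 and that of Socs1 grew to 0.24, and the medians of the STAT3 and STAT6 targets shrank to -0.15 and -0.14. Over the 8 tested members and the alternatives, 112 comparisons kept direction and side of the threshold, 12 no longer passed, 3 newly passed and 1 changed sign. The sum of fragments replaces the library size of the deposited values, which rescales all genes of a library by the same factor. Leaving out a library also leaves fewer libraries, and with no filter 22912 genes were tested in place of 8882. The cause of these shifts was not tested. No paired analysis was possible because replicates are numbered 1 to 3 in WT and 4 to 6 in PGRN KO. Depth limits Stat4, with 51 to 84 fragments per library.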

Other observations

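Some further values of the pathway were picked after they had been seen. Ifnb1, the gene of interferon beta, which acts through STAT2, was at 5.66, 6.94 and 3.62 FPKM in WT and at 7.39, 5.42 and 8.95 FPKM in PGRN KO, and the groups overlapped (log2 fold change 0.38 ± 0.24, limma adjusted p = 0.274). Its receptor chains Ifnar1 and Ifnar2 did not pass either, with log2 fold changes of 0.22 ± 0.11 and 0.27 ± 0.11 (limma adjusted p = 0.183 and 0.131). Rsad2, an antiviral enzyme induced by interferon, rose from 445 ± 59.7 to 907 ± 107 FPKM (SD, n = 3 each, limma adjusted p = 0.00480).

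Both Lif and the chain Lifr of its receptor fell, the latter from 2.76 ± 0.146 to 1.52 ± 0.437 FPKM (limma adjusted p = 0.0253). The call for Lifr was lost without WT replicate 1, 2 or 3, without PGRN KO replicate 5, with no filter and on the TPM scale (limma adjusted p = 0.0564 to 0.0968). Csf3, the gene of G-CSF, a ligand that acts through STAT3, fell from 1987 ± 303 to 1141 ± 172 FPKM (limma adjusted p = 0.0160; lost without WT replicate 1 or 2, without PGRN KO replicate 4 and with no filter, 0.0561 to 0.0755). Il27ra, the receptor of IL-27, rose from 1.48 ± 0.0112 to 2.45 ± 0.185 FPKM (limma adjusted p = 0.0119), and Il4ra, the chain through which STAT6 is reached, fell from 59.1 ± 0.763 to 43.2 ± 2.33 FPKM (limma adjusted p = 0.0117). Without WT replicate 1, 2 or 3 neither of these calls held (limma adjusted p = 0.0531 to 0.0708).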
